A study of Mus musculus with 12 samples.

Results

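The MHC class I presentation genes are 32 genes, among the 49997 genes of the deposited tables, that encode class I heavy chains, the light chain, the peptide loading machinery, the immunoproteasome and their regulators. They were chosen as a list of symbols, and each symbol matched 1 row exactly in both tables. The RNA came from mouse thymocytes sorted as DP (CD4 and CD8 double-positive) or as CD4 cells. Each sort was taken from Satb1 KO thymus and from WT thymus, and 3 libraries of poly(A) RNA were sequenced in each of the 4 groups, 12 libraries in all. All 12 libraries, the WT ones included, are labelled as treated with tamoxifen, which induced the knockout. SATB1 is a chromatin organiser of T cells that binds DNA in the nucleus. The labels do not name the Cre driver, the deleted part of the gene, the sort gates, the age of the animals or their strain. Nor do they tell whether each library is a mouse of its own, so a p-value reflects the spread among these libraries, which may be technical.

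MHC class I molecules carry peptides from the inside of a cell to its surface. Proteins are cut by the proteasome or the immunoproteasome, and the TAP transporter moves the peptides into the endoplasmic reticulum. There a loading complex places them on a heavy chain paired with the light chain beta-2 microglobulin. In the thymus, class I on stromal cells selects CD8 T cells, while DP thymocytes themselves are known for low surface class I, which increases as they mature. NLRC5 is the main transactivator of class I genes, and interferons induce much of the pathway, in part through IRF factors.

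Of the 32 genes, 20 lie on chromosome 17 within chr17:33919478-37483554 (mm10), in or beside the H2 complex. Satb1 lies on the same chromosome at chr17:51736187-51833290. The H2 haplotype of the mice is not given in the sources used here. Upstream sequence was available for 26 of the 32 genes in RefSeq promoters of GRCm38.p6. It is printed for 6 genes on which the results turn, as the 250 bases before the start site, 5′ to 3′: the classical heavy chain H2-K1 and its light chain B2m, the neighbouring genes H2-Q6, H2-Q7 and H2-Q2, which differed in their response, and the transporter gene Tap1. H2-K1 had 2 listed start sites, at 34000333 and 34000347, and the stretch before the former is printed. In the deposited annotation H2-K1 extends to 34000619, so that stretch lies within the gene as counted. Capitals mark the motifs searched on both strands, which were the interferon response element core, the CCAAT box (CCAAT, or ATTGG on the other strand), the CRE core TGACGTCA and the kappaB letters.
H2-K1 (chr17:34000334-34000583, minus strand): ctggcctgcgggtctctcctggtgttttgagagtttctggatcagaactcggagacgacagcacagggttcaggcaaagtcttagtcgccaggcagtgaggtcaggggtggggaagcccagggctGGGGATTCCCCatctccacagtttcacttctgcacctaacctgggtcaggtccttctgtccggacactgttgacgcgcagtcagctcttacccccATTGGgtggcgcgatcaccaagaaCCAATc
B2m (chr2:122147437-122147686, plus strand): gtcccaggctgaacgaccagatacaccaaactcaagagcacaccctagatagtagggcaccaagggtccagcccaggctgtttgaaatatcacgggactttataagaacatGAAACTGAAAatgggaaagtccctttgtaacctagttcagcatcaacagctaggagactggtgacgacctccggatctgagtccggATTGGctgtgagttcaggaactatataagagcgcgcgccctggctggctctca
H2-Q6 (chr17:35424600-35424849, plus strand): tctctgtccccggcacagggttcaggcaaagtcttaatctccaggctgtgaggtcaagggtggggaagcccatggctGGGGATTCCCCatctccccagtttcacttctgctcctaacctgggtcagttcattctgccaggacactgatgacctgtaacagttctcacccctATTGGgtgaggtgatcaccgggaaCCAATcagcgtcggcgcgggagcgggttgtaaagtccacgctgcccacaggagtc
H2-Q7 (chr17:35438905-35439154, plus strand): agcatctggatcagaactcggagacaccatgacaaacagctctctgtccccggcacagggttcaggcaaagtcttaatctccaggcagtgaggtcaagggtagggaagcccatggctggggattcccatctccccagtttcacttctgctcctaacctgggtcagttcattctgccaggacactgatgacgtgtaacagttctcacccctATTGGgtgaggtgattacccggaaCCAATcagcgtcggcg
H2-Q2 (chr17:35342057-35342306, plus strand): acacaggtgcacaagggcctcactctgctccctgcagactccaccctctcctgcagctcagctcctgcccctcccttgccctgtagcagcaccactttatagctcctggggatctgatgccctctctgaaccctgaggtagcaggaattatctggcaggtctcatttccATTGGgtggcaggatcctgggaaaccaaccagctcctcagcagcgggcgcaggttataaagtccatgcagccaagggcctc
Tap1 (chr17:34187306-34187555, plus strand): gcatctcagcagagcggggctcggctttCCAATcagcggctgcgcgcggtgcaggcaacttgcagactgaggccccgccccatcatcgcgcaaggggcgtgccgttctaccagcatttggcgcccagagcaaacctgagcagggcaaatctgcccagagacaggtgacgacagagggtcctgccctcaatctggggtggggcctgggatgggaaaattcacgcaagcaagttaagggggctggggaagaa

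In windows of 250 bases before to 50 bases after the start site, the kappaB letters stood in 0.0304% of all 32851 promoters and in 3 of the 26 (H2-K1, H2-D1 and H2-Q6). They did not stand in full in the windows of H2-Q7 or H2-Q2, and H2-Q7 held a run that differed from them only in the last letter. The interferon response element core stood in 3.44% of all promoters and in 6 of the 26 (B2m, Erap1, H2-T22, H2-T23, Irf2 and Psme1). In B2m it began 139 bases before the start site. The CCAAT box stood in 37.4% of all promoters and in 19 of the 26, and the CRE core in 1.79% of all promoters and in 0 of the 26. The start sites of Tap1 and of the immunoproteasome gene Psmb9 are 226 bases apart on opposite strands, so the Tap1 sequence spans the whole stretch between them. A match is a run of letters, and binding of a factor was not measured. Only exact matches were counted, so a window without a match may hold a near one. A missing match therefore does not mean that a gene lacks the element.

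Total counts per library lay between 22790504 and 62422640, and 3 counts, taken as the limit of detection, corresponded to 0.0465 to 0.134 CPM. Levels are given in CPM, read counts scaled to a common library total after TMM normalization over all 12 libraries. Satb1 RNA averaged 2609 ± 231 CPM in DP KO and 3867 ± 29.1 CPM in DP WT, and 1499 ± 40.7 CPM in CD4 KO against 3273 ± 258 CPM in CD4 WT (SD, n = 3 each), so a large part of the transcript remained. DP WT replicates 1 and 2 stood apart from the other 10 libraries in sex-linked RNA, with 0.845 and 0.273 CPM of Xist against 190 to 601 CPM. The Y-linked gene Ddx3y was read in every library, at 127 and 110 CPM in those 2 and 40.4 to 118 CPM in the other 10. The other 10 libraries thus held both Xist and Y-linked RNA, and the source of this mix was not tested. The marker lists changed with genotype too. The summed CPM of 10 DP stage genes lay at 7938 to 8182 in DP KO and 13230 to 14420 in DP WT, and at 2926 to 3517 in CD4 KO against 1539 to 1986 in CD4 WT. The sum of 8 CD4 stage genes lay at 1311 to 1389 CPM in DP KO and 1670 to 1746 CPM in DP WT, and at 1787 to 1939 CPM in CD4 KO against 3180 to 3337 CPM in CD4 WT. Cd4 was counted in both lists, so the sums are not independent. In DP, Il7r, S1pr1, Zbtb7b and Ccr7 made up only a small part of the CD4 stage sum. Of the 8, 2 rose and 2 fell in DP KO, against 16.7% and 14.1% of all genes. Those that rose were the interleukin receptor gene Il7r, at 123 to 170 CPM in DP KO and 7.29 to 10.35 CPM in DP WT, and S1pr1, which encodes a receptor for exit from the thymus, at 8.49 to 17.1 CPM in DP KO and 1.56 to 2.56 CPM in DP WT. Zbtb7b and Ccr7 were not called in DP, at 0.254 to 8.19 CPM in KO and 2.41 to 9.39 CPM in WT. The part of these shifts in the class I results was not tested, and in bulk RNA fewer cells of a type cannot be told apart from less RNA per cell.

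In DP thymocytes the class I pathway genes were higher in KO. Of the 31 tested, 17 rose and 1 fell, with a median log2 fold change of 0.39 over the 31 against 0.0072 over all 16776 genes tested. Over all genes, 16.7% were called higher and 14.1% lower (edgeR quasi-likelihood test, Benjamini-Hochberg adjusted p under 0.05 over all genes, which holds for every adjusted p below). In 19 of the 31 all 3 KO libraries lay above all 3 WT libraries and in 2 they lay below, which held for 23.7% and 21.7% of all genes. In CD4 thymocytes the direction was the other one. There 17 of 32 fell and 4 rose, with a median of -0.23 against 0.0023 over all 17316 genes, of which 18.6% were called lower and 20.9% higher. The KO libraries lay below all WT libraries for 19 of the 32 and above them for 5, against 25% and 26.9% of all genes.

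The 2 effects were set against each other in 1 fit of all 12 libraries. The KO effect was lower in CD4 than in DP for 22 of the 32 genes and higher for 4, with a median difference of -0.72 against 0.033 over all 18431 genes. Over all genes, 13.4% were called lower and 14.4% higher in that test. Of the 17 genes that rose in DP KO, 8 fell in CD4 KO (Erap1, H2-M3, H2-Q7, Nlrc5, Psmb9, Psme2, Tap1 and Tapbp) and 2 rose there as well (H2-Q2 and Canx). Of the 8 that fell, only Nlrc5 kept both calls in every fit without 1 library. The others each lost 1 of the 2 calls in some of those fits, and Canx lost both of its calls in some. On chromosome 17, 8 of 20 genes rose and 1 fell in DP KO, where H2-M2 of the 20 was not tested, and 12 fell and 2 rose in CD4 KO. On the other chromosomes 9 of 12 rose in DP KO, and 5 of 12 fell and 2 rose in CD4 KO.

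**Figure D1:**
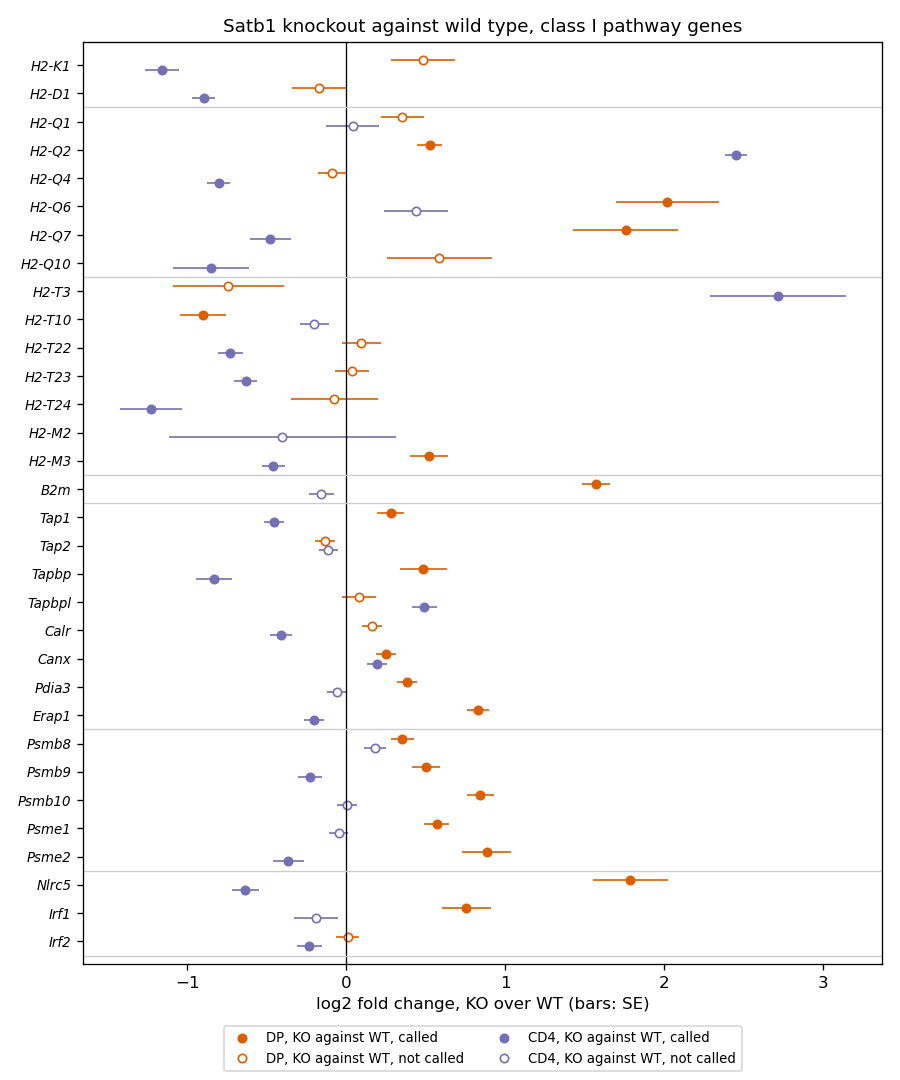
Log2 fold change of KO over WT for the 32 class I pathway genes, by role group from heavy chains (top) to regulators (bottom), in DP (orange, 31 tested) and CD4 thymocytes (purple). Bars show the SE, filled points passed the test, and most orange points lie to the right of the purple ones, with H2-Q2, H2-T3, H2-T10 and Tapbpl among the exceptions.

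Among the regulators, Nlrc5 encodes the class I transactivator, and it had the most negative difference between the 2 KO effects among the 32 genes. Its levels in DP were 76.3, 81.2 and 42.1 CPM in KO, against 19.99, 15.9 and 22.6 CPM in WT. In CD4 they were 267, 275 and 221 CPM in KO, against 399, 400 and 385 CPM in WT. Neither pair of groups overlapped, and the KO libraries lay above WT in DP and below it in CD4. Nlrc5 rose in DP KO (log2 fold change 1.79 ± 0.23 (SE), adjusted p = 0.000427) and fell in CD4 KO (-0.63 ± 0.087, adjusted p = 0.000375), and the difference of the effects was -2.42 ± 0.28 (adjusted p = 2.71e-05).

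Irf1 encodes an interferon-induced activator of the pathway. It stood at 133, 160 and 175 CPM in DP KO and at 91.4, 73.1 and 115 CPM in DP WT. The KO libraries lay above the WT ones, and the rise passed the test (0.76 ± 0.16, adjusted p = 0.00531). In CD4 the libraries overlapped, at 223 to 278 CPM in KO and 230 to 336 CPM in WT (-0.19 ± 0.14, adjusted p = 0.311). Irf2, a related factor that in human cells activates genes of the pathway, had 74.9, 74.0 and 67.6 CPM in DP KO and 70.6, 73.8 and 72.7 CPM in DP WT. Those groups overlapped (0.009 ± 0.072, adjusted p = 0.943). In CD4 it fell to 98.9, 105 and 86.9 CPM in KO, against 113, 117 and 111 CPM in WT (-0.23 ± 0.076, adjusted p = 0.0384), a call that was lost without any 1 of CD4 KO replicates 1 and 3 and CD4 WT replicates 1 and 2 (adjusted p up to 0.116).

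The light chain B2m pairs with every classical heavy chain. It stood at 605, 617 and 556 CPM in DP KO and at 199, 181 and 223 CPM in DP WT. The KO libraries all lay far above the highest WT library, and the rise was 1.57 ± 0.090 (adjusted p = 2.32e-06). In CD4 the KO libraries held 920, 915 and 942 CPM and the WT libraries 946, 1017 and 1135 CPM. The KO values lay just under the WT values, and the difference did not pass the test (-0.16 ± 0.080, adjusted p = 0.152).

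The classical heavy chains H2-K1 and H2-D1 present peptides to CD8 T cells. H2-K1 had 795, 847 and 913 CPM in CD4 KO, against 1701, 1800 and 2200 CPM in CD4 WT. H2-D1 had 751, 769 and 753 CPM in CD4 KO, against 1359, 1361 and 1514 CPM in CD4 WT. For both genes every KO library lay far below the lowest WT library. H2-K1 fell by 1.16 ± 0.11 (adjusted p = 3.34e-05) and H2-D1 by 0.90 ± 0.071 (adjusted p = 1.47e-05) on the log2 scale.

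In DP the heavy chains did not follow B2m. H2-K1 stood at 141, 168 and 85.6 CPM in KO and at 101, 86.9 and 96.8 CPM in WT, and H2-D1 at 212, 224 and 133 CPM in KO and 232, 211 and 203 CPM in WT. The groups overlapped for both genes, with KO replicate 3 the lowest DP library of either genotype in each. Neither passed the test (0.48 ± 0.20, adjusted p = 0.102, and -0.17 ± 0.17, adjusted p = 0.487). Without DP KO replicate 3 the H2-K1 change was 0.73 (adjusted p = 0.000648), and H2-K1 was also called in the fit without the low-count filter (0.52, adjusted p = 1.95e-07). That library was the lowest DP KO library for 21 of the 32 genes, and for 6 of them (H2-K1, H2-D1, H2-Q6, H2-Q7, H2-T24 and Nlrc5) it held under 2/3 of either other one. The same count was not made over all genes. DP KO replicate 3 also stood apart over all genes. Its chi-square per degree of freedom was 42.1 and 50.8 against replicates 1 and 2, which had 16.8 between them.

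The unequal changes show in ratios of counts within a library, which need no scaling between libraries. The ratio of B2m to H2-K1 and H2-D1 summed was 1.72, 1.57 and 2.54 in DP KO and 0.597, 0.609 and 0.742 in DP WT. In CD4 it was 0.595, 0.566 and 0.566 in KO and 0.309, 0.322 and 0.306 in WT. The KO libraries lay above the WT libraries in both sorts. The ratio of H2-K1 to H2-D1 was 0.644 to 0.753 in DP KO and 0.412 to 0.477 in DP WT, and 1.06 to 1.21 in CD4 KO against 1.25 to 1.45 in CD4 WT.

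**Figure D2:**
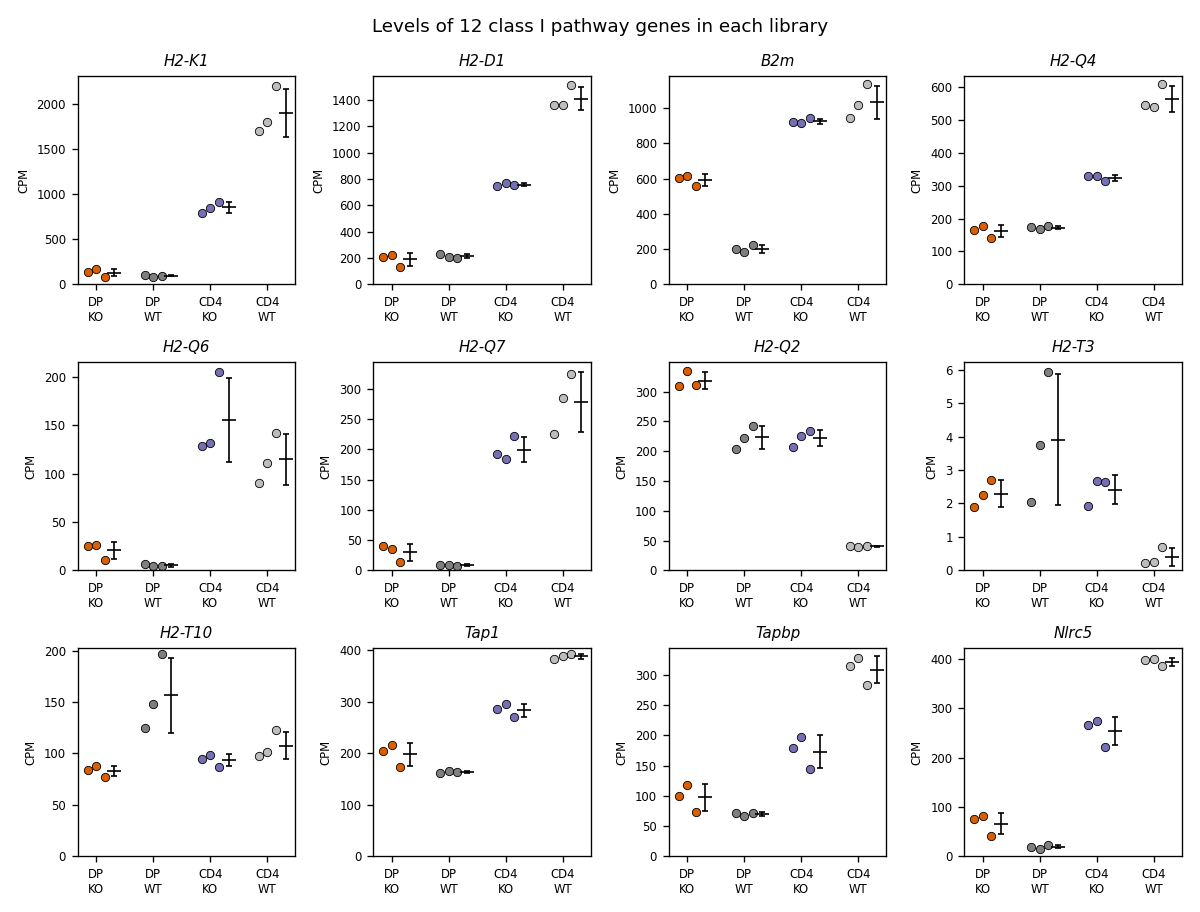
CPM of 12 class I pathway genes in each library, in 4 groups of 3 (DP KO, DP WT, CD4 KO, CD4 WT), with the mean and SD as a dash and bar. B2m is raised in DP KO while H2-K1 and H2-D1 are not set apart there, and in CD4 H2-K1 stands at 795 to 913 CPM in KO and 1701 to 2200 CPM in WT.

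The Qa region holds non-classical heavy chain genes. H2-Q2 rose in both sorts. It stood at 309, 335 and 312 CPM in DP KO and at 204, 222 and 243 CPM in DP WT (0.53 ± 0.080, adjusted p = 0.00105). In CD4 it stood at 207, 225 and 233 CPM in KO and at 40.3, 39.5 and 41.7 CPM in WT. The CD4 KO libraries lay within the range of the DP WT libraries and far above CD4 WT. The CD4 rise was 2.46 ± 0.069 (adjusted p = 2.36e-07).

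H2-Q6 and H2-Q7 encode the Qa-2 antigen and share stretches of sequence. H2-Q7 had 39.7, 35.3 and 13.8 CPM in DP KO and 9.28, 9.58 and 7.499 CPM in DP WT, and H2-Q6 25.3, 26.1 and 10.8 CPM in DP KO and 6.65, 4.49 and 4.20 CPM in DP WT. Both rose there with no overlap (1.76 ± 0.33, adjusted p = 0.00333, and 2.02 ± 0.32, adjusted p = 0.00141). In CD4, H2-Q7 fell to 192, 184 and 222 CPM in KO, against 225, 284 and 325 CPM in WT (-0.48 ± 0.13, adjusted p = 0.0156), with the groups just apart. In 1 model over all 12 libraries it was not called (adjusted p = 0.182), nor was it without CD4 KO replicate 1, CD4 KO replicate 2 or CD4 WT replicate 2 (adjusted p up to 0.0689). H2-Q6 had 129, 132 and 205 CPM in CD4 KO and 90.7, 111 and 142 CPM in CD4 WT, which overlapped (0.44 ± 0.20, adjusted p = 0.115). It was called higher there with the replicate block (0.43, adjusted p = 0.000804), without the low-count filter (0.46, adjusted p = 1.51e-07) and without CD4 WT replicate 3 (0.625, adjusted p = 0.0335).

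The other Qa genes were H2-Q4, H2-Q1 and H2-Q10. H2-Q4 fell in CD4 KO to 328, 328 and 313 CPM, against 543, 539 and 609 CPM in CD4 WT (-0.80 ± 0.072, adjusted p = 2.89e-05). In DP it stood at 141 to 176 CPM in KO and 168 to 176 CPM in WT (-0.089 ± 0.089, adjusted p = 0.495). H2-Q1 stood at 21.9 to 39.0 CPM over all 12 libraries and passed neither KO test. In DP it was called higher with the replicate block (0.37, adjusted p = 0.0427), without the low-count filter (0.40, adjusted p = 0.00441) and without DP WT replicate 3 (0.52, adjusted p = 0.00621). H2-Q10, known in mouse as a secreted liver product, stayed at 0.491 to 3.56 CPM and fell in CD4 KO by 0.85 ± 0.24 (adjusted p = 0.0181), a call lost without CD4 KO replicate 1 or CD4 WT replicate 2.

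Reads of these genes are hard to place. Of the windows of 150 bases, the read length, in the annotated transcripts, 9.68% of H2-Q7 and 5.99% of H2-Q6 also occurred in another gene, as did 4.64% of H2-Q1 and 1.79% of H2-D1, while H2-K1, H2-Q2, H2-Q4 and H2-Q10 had no such window. All 20 genes on chromosome 17 also had exons on alternative sequences in the deposited annotation, which B2m did not. How reads matching both copies were counted is not given in the sources used here, so counts of these 20 genes may be reduced. With the 6 Qa genes summed, the log2 change was 0.38 in DP and -0.14 in CD4, and with H2-K1 and H2-D1 summed it was -1.04 in CD4.

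In the T and M regions the genes named here encode Qa-1 (H2-T23), ligands of some gamma delta T cell receptors (H2-T22 and H2-T10), the TL antigen (H2-T3) and a heavy chain that presents N-formylated peptides (H2-M3). H2-T22 fell in CD4 KO to 126, 139 and 123 CPM, against 199, 216 and 229 CPM in CD4 WT (-0.73 ± 0.077, adjusted p = 7.82e-05). H2-T23 fell in CD4 KO to 220, 239 and 215 CPM, against 328, 347 and 369 CPM in CD4 WT (-0.63 ± 0.072, adjusted p = 0.000125). The groups did not overlap for either gene. Of the exon bases of H2-T22, 24.1% are shared with the overlapping gene A930015D03Rik, so its reads are uncertain. In DP both genes overlapped between genotypes, with log2 changes of 0.096 ± 0.12 and 0.036 ± 0.11 (adjusted p = 0.601 and 0.836).

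H2-M3 had 14.7, 17.1 and 15.1 CPM in DP KO and 11.1, 9.95 and 12.01 CPM in DP WT. It had 24.2, 24.04 and 24.7 CPM in CD4 KO and 32.6, 33.1 and 34.5 CPM in CD4 WT. The groups were apart in both sorts and in opposite directions, with a rise of 0.52 ± 0.12 in DP (adjusted p = 0.00852) and a fall of 0.46 ± 0.074 in CD4 (adjusted p = 0.00102). The DP call was lost without DP WT replicate 2 (adjusted p = 0.0514).

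H2-T10 was the member that fell in DP KO, to 84.1, 87.4 and 77.2 CPM, against 124, 148 and 197 CPM in DP WT (-0.90 ± 0.15, adjusted p = 0.00148). Of its exon bases, 31% are shared with the overlapping gene BC023719, so its reads are uncertain. In CD4 it stood at 87.1 to 98.7 CPM in KO and 98.0 to 123 CPM in WT, which overlapped (-0.20 ± 0.093, adjusted p = 0.122). H2-T3 was low in every library, with 1.91, 2.68 and 2.64 CPM in CD4 KO and 0.212, 0.261 and 0.704 CPM in CD4 WT. It rose there by 2.72 ± 0.43 (adjusted p = 0.000849), and it stood at 1.91 to 2.70 CPM in DP KO and 2.03 to 5.94 CPM in DP WT (-0.74 ± 0.35, adjusted p = 0.142). The DP difference of H2-T3 was called without DP WT replicate 1 (-1.07, adjusted p = 0.0232), without the low-count filter (-0.70, adjusted p = 0.0285) and with DP WT replicate 3 as the lone DP WT library (-1.38, adjusted p = 0.0254). H2-T24 fell in CD4 KO, to 30.0 to 57.3 CPM against 98.4 to 115 CPM in CD4 WT (-1.23 ± 0.20, adjusted p = 0.00097), and overlapped in DP, at 11.1 to 26.6 CPM in KO and 18.3 to 25.7 CPM in WT. H2-M2 stayed under 1.33 CPM in all 12 libraries, failed the low-count filter in DP, and had 0.255 to 0.697 CPM in CD4 KO and 0.0671 to 1.32 CPM in CD4 WT.

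Of the 8 genes of peptide transport and loading, 5 rose in DP KO, with a median of 0.27, and 4 fell and 2 rose in CD4 KO, with a median of -0.16. Beside these counts, 16.7% of all genes were called higher in DP KO, and 18.6% lower and 20.9% higher in CD4 KO. Erap1, the aminopeptidase that trims peptides in the endoplasmic reticulum, had 122, 125 and 121 CPM in DP KO and 66.2, 68.6 and 73.9 CPM in DP WT. It rose there by 0.83 ± 0.068 (adjusted p = 2.43e-05), with the groups far apart. In CD4 it had 134, 145 and 140 CPM in KO and 152, 164 and 167 CPM in WT, a small fall of 0.20 ± 0.064 (adjusted p = 0.032) that was lost in 5 of 6 fits without 1 library and in the fit without the low-count filter. Exons of Cast share 14.7% of its exon bases.

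Tap1, which forms the peptide transporter with Tap2, had 204, 216 and 174 CPM in DP KO and 163, 166 and 165 CPM in DP WT. In CD4 it had 286, 295 and 270 CPM in KO and 383, 388 and 393 CPM in WT. The groups were apart in both sorts. Tap1 rose in DP KO by 0.28 ± 0.086 (adjusted p = 0.0347) and fell in CD4 KO by 0.45 ± 0.063 (adjusted p = 0.000401). The DP call did not hold in 5 of 6 fits without 1 library (adjusted p 0.072 to 0.112).

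Tap2 behaved otherwise. It stood at 345 to 368 CPM in DP KO and 386 to 400 CPM in DP WT, and at 313 to 337 CPM in CD4 KO and 342 to 355 CPM in CD4 WT. The KO libraries lay below the WT libraries in both sorts, by amounts that did not pass the test (-0.13 ± 0.063, adjusted p = 0.143, and -0.11 ± 0.061, adjusted p = 0.187). The ratio of Tap1 to Tap2 counts was 0.498 to 0.591 in DP KO and 0.414 to 0.424 in DP WT, and 0.841 to 0.914 in CD4 KO against 1.08 to 1.15 in CD4 WT.

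Tapbp encodes tapasin, which bridges the transporter and the heavy chain. It had 101, 118 and 73.6 CPM in DP KO and 72.3, 66.6 and 71.7 CPM in DP WT, and KO replicate 3 lay just over the WT libraries. It had 179, 197 and 144 CPM in CD4 KO and 315, 327 and 283 CPM in CD4 WT, with the KO libraries well below. It rose in DP (0.49 ± 0.15, adjusted p = 0.0324) and fell in CD4 (-0.83 ± 0.11, adjusted p = 0.000317). The DP call was lost in 5 of 6 fits without 1 library (adjusted p 0.068 to 0.116). Of the exon bases of Tapbp, 14.4% are shared with Gm19412, so its reads are uncertain too.

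Tapbpl, which encodes the tapasin relative TAPBPR, a peptide editor, went the other way in CD4. It had 76.8, 88.0 and 74.6 CPM in CD4 KO and 59.2, 57.9 and 53.1 CPM in CD4 WT, a rise of 0.49 ± 0.080 (adjusted p = 0.00103) with no overlap. In DP it stood at 62.9 to 84.7 CPM in KO and 67.8 to 72.8 CPM in WT (0.081 ± 0.11, adjusted p = 0.612). Calr, Canx and Pdia3 encode the chaperones calreticulin and calnexin and the oxidoreductase ERp57, which serve many glycoproteins. Calr fell in CD4 KO to 405, 382 and 376 CPM, against 551, 509 and 486 CPM in CD4 WT (-0.41 ± 0.071, adjusted p = 0.00155), and stood at 308 to 311 CPM in DP KO and 277 to 280 CPM in DP WT (0.16 ± 0.060, adjusted p = 0.0678), where it was called without DP KO replicate 3 (0.18, adjusted p = 0.0456). Pdia3 rose in DP KO, at 297 to 307 CPM against 228 to 239 CPM in DP WT, by 0.38 ± 0.062 (adjusted p = 0.00143). Canx rose by 0.25 ± 0.063 in DP KO (adjusted p = 0.0145) and by 0.19 ± 0.062 in CD4 KO (adjusted p = 0.0348), and each of these Canx calls was lost in some of the fits without 1 library.

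All 5 genes of the immunoproteasome and its activator rose in DP KO, by 0.35 to 0.88 (median 0.57), and 2 of the 5 fell in CD4 KO (median -0.046). Among all genes, 16.7% were called higher in DP KO and 18.6% lower in CD4 KO. Psmb10 encodes the MECL-1 subunit. It had 78.7, 84.4 and 71.5 CPM in DP KO and 43.6, 42.1 and 46.1 CPM in DP WT, a rise of 0.84 ± 0.085 (adjusted p = 8.48e-05). In CD4 it stood at 84.4 to 92.3 CPM in KO and 84.7 to 90.4 CPM in WT, which overlapped (0.007 ± 0.062, adjusted p = 0.947).

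Psmb9, the LMP2 subunit gene beside Tap1, had 69.9, 69.3 and 58.8 CPM in DP KO and 46.8, 47.1 and 46.9 CPM in DP WT. It had 82.9, 79.7 and 73.6 CPM in CD4 KO and 99.5, 91.7 and 85.8 CPM in CD4 WT. The groups were apart in both sorts. It rose in DP by 0.50 ± 0.087 (adjusted p = 0.00213) and fell in CD4 by 0.23 ± 0.075 (adjusted p = 0.0375), and the CD4 call was lost in 5 of 6 fits without 1 library (adjusted p up to 0.139).

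Psmb8 encodes the LMP7 subunit. It had 311, 329 and 293 CPM in DP KO and 254, 247 and 234 CPM in DP WT, a rise of 0.35 ± 0.072 (adjusted p = 0.00491) with no overlap. In CD4 it had 278, 307 and 282 CPM in KO and 257, 242 and 267 CPM in WT. The KO libraries lay above the WT libraries there too, and the difference did not pass the test (0.18 ± 0.070, adjusted p = 0.0669). With the replicate block its adjusted p was 0.05, just under the threshold before rounding.

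Psme1 and Psme2 encode the alpha and beta subunits of the PA28 activator. Psme1 had 181, 200 and 166 CPM in DP KO and 125, 121 and 126 CPM in DP WT (0.57 ± 0.080, adjusted p = 0.000647), and 215 to 225 CPM in CD4 KO and 224 to 234 CPM in CD4 WT (-0.046 ± 0.059, adjusted p = 0.582). Psme2 rose in DP KO by 0.88 ± 0.15 (adjusted p = 0.00227), at 55.7 to 88.6 CPM in KO and 37.4 to 44.3 CPM in WT. It fell in CD4 KO by 0.36 ± 0.099 (adjusted p = 0.0166), a call lost in 1 model over all 12 libraries and without CD4 WT replicate 1 or 2. Of its transcript windows, 32.5% also occur in Psme2b, so its reads are uncertain.

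Against their constitutive counterparts, which they replace in the immunoproteasome, the ratio of Psmb9 to Psmb6 counts was 0.568 to 0.675 in DP KO and 0.389 to 0.4998 in DP WT, and 0.821 to 0.907 in CD4 KO against 1.13 to 1.27 in CD4 WT. The ratio of Psmb10 to Psmb7 was 0.490 to 0.673 in DP KO and 0.307 to 0.371 in DP WT, and 0.721 to 0.885 in CD4 KO against 1.03 to 1.09 in CD4 WT. Both ratios were higher in KO than in WT in DP and lower in KO than in WT in CD4, with no overlap. The constitutive genes differed in CD4 too, with Psmb7 at 103 to 120 CPM in KO and 77.4 to 87.9 CPM in WT. Psmb6 stood at 89.6 to 95.7 CPM in CD4 KO and 72.0 to 83.1 CPM in CD4 WT. Psmb10 itself was not called in CD4, so its lower ratio there is not a fall of Psmb10. The ratio of Psmb8 to Psmb5 was 6.15 to 7.44 in DP KO and 6.01 to 6.27 in DP WT, and 6.66 to 7.40 in CD4 KO and 7.32 to 7.93 in CD4 WT, which overlapped in both sorts. Of 14 constitutive proteasome genes, 4 rose and 1 fell in DP KO (median 0.15) and 10 rose in CD4 KO (median 0.29). Over all genes, 16.7% were called higher and 14.1% lower in DP KO, and 20.9% were called higher in CD4 KO.

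**Figure D3:**
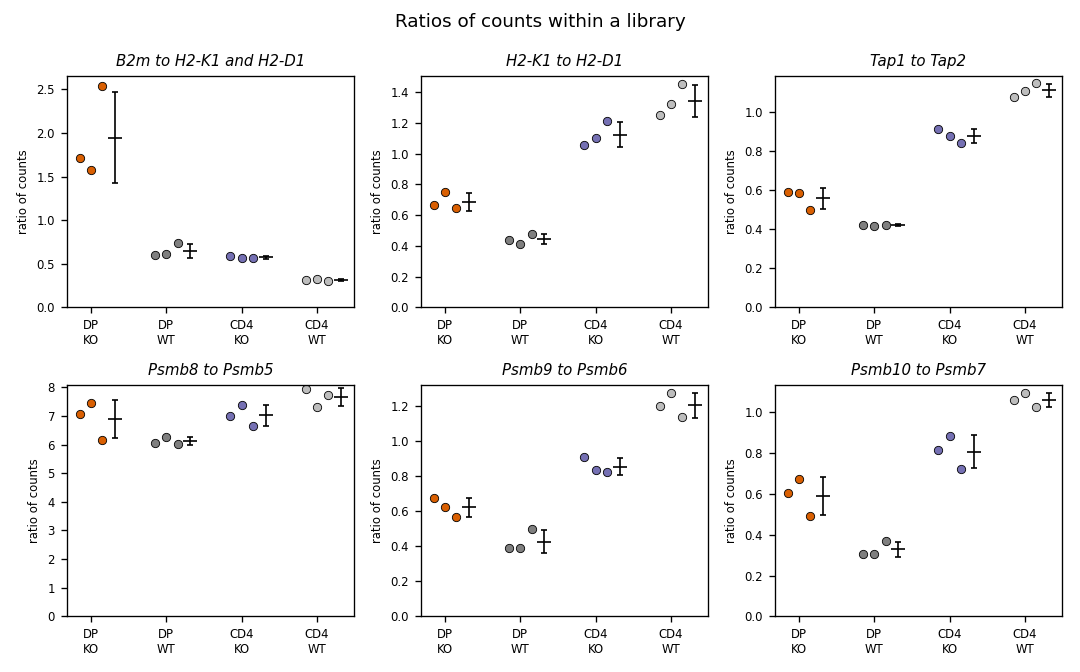
Ratio of the counts of pairs of class I pathway genes within each library, in 4 groups of 3 libraries, with the mean and SD as a dash and bar. B2m to H2-K1 and H2-D1 summed is higher in KO in both sorts, while Tap1 to Tap2, Psmb9 to Psmb6 and Psmb10 to Psmb7 are higher in DP KO and lower in CD4 KO than in WT of the same sort.

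The change from DP to CD4 cells was also compared within each genotype. In WT, 23 of the 32 genes were higher in CD4 and 5 lower, with a median log2 fold change of 1.22. Over all 17369 genes tested, 28% were called higher and 27.1% lower, 55% in either direction. In KO, 21 of the 32 were higher in CD4 and 1 lower, with a median of 0.49, and 13.9% of all 16910 genes were called higher and 7.82% lower. All 3 CD4 libraries lay above all 3 DP libraries for 23 genes in WT and 22 in KO, and below for 5 and 2, against 32.1% and 20.6% of all genes above and 30.6% and 19.5% below. These comparisons share their libraries with those of KO against WT, and the difference between the changes from DP to CD4 in KO and in WT is the interaction given above.

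H2-Q7, at 2.77 ± 0.34 in KO cells (adjusted p = 0.000809), had at 4.97 ± 0.15 the largest increase of the 32 genes in WT cells (adjusted p = 7.25e-09). Nlrc5 changed by 1.95 ± 0.22 in KO and by 4.35 ± 0.12 in WT. H2-K1 changed by 2.72 ± 0.22 in KO and by 4.32 ± 0.12 in WT, and H2-D1 by 2.02 ± 0.18 in KO and by 2.71 ± 0.080 in WT. B2m changed by 0.66 ± 0.067 in KO and by 2.36 ± 0.097 in WT. For these 5 genes the change was smaller in KO, and the interaction was called for each. H2-Q2 was lower in CD4 than in DP in both genotypes, by 0.50 ± 0.071 in KO and 2.47 ± 0.079 in WT on the log2 scale, and it is the 1 gene lower in both.

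The 4 other genes lower in CD4 than in DP in WT were H2-T3 (-3.41 ± 0.51), H2-T10 (-0.54 ± 0.15), Tapbpl (-0.30 ± 0.072) and Tap2 (-0.17 ± 0.059). In KO their values were 0.10 ± 0.22, 0.19 ± 0.072, 0.15 ± 0.11 and -0.11 ± 0.062, with adjusted p of 0.794, 0.097, 0.402 and 0.254. With the replicate block H2-T10 and Tapbpl were called higher in KO (adjusted p = 0.00645 and 0.0463). Psmb9, Psmb10 and Psme2 were higher in CD4 in WT, by 0.97, 0.99 and 1.63, and had 0.27, 0.19 and 0.41 in KO (adjusted p = 0.0517, 0.12 and 0.112). With the replicate block these were called in KO too (adjusted p = 0.00167, 0.0183 and 0.000825), as was Psmb9 in 1 model over all 12 libraries and without CD4 KO replicate 3, and Psme2 by the DESeq2 Wald test, without the low-count filter and without DP KO replicate 2 (adjusted p 0.000341 to 0.0493 for Psmb9 and Psme2). H2-M2 was called higher in CD4 in KO cells, where the DP libraries held only 1 to 4 counts of it, so no fold is given.

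**Figure D4:**
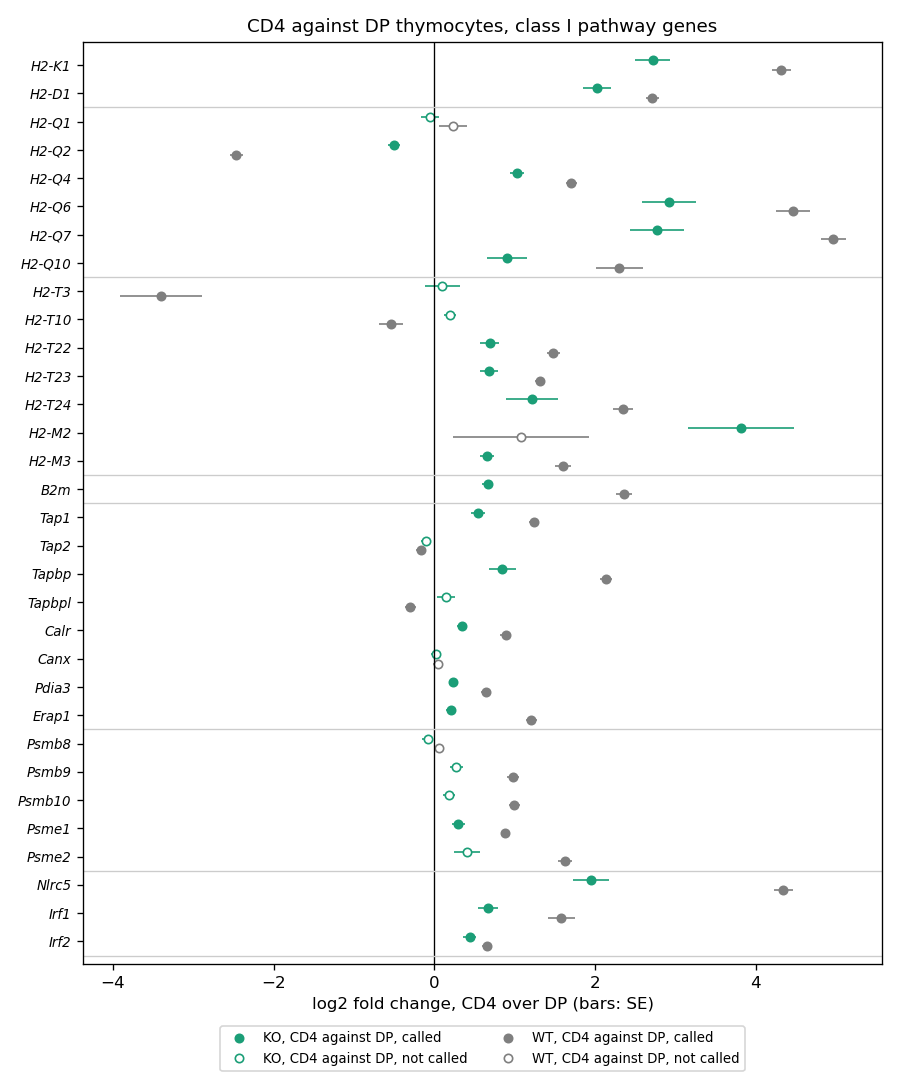
Log2 fold change of CD4 over DP thymocytes for the 32 class I pathway genes, in KO (green) and WT (grey), with SE bars and filled points for genes that passed the test. The green points lie closer to 0 than the grey ones for most genes, as for H2-K1 at 2.72 in KO and 4.32 in WT, and H2-Q2 and H2-T3 are low on the grey side.

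Per kilobase of exon on the primary chromosomes, the light chain gene was listed highest in all 4 groups. Ranks between it and the genes on chromosome 17 are uncertain, since counts of the genes on chromosome 17 may be reduced by their copies on alternative sequences, which was not tested. B2m stood at 691 ± 37.7 CPM per kilobase in DP KO and 234 ± 24.03 in DP WT, and at 1079 ± 17.01 in CD4 KO and 1203 ± 112 in CD4 WT (SD, n = 3 each). H2-D1 and H2-K1 held ranks 2 and 3 in CD4 cells, at 436 ± 5.57 and 347 ± 23.95 CPM per kilobase in CD4 KO and 813 ± 51.2 and 774 ± 108 in CD4 WT, where these 2 neighbours overlapped in their spread. Ranks also depend on the length used. H2-K1 had 2454 exon bases and H2-D1 1736, while their longest annotated coding transcripts held 1619 and 2102 bases. Over those transcript lengths H2-K1 would stand above H2-D1 in CD4 cells. In DP cells rank 2 was that of Psmb8, at 254 ± 14.7 CPM per kilobase in DP KO and 200 ± 8.37 in DP WT, and H2-K1 had rank 16 in both. H2-Q10, H2-T3 and H2-M2 took the last 3 ranks in 4 of 4 groups.

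Other genes of the pathway were taken from lists of roles. Among 11 genes of interferon input, 6 rose and 3 fell in DP KO, and 6 fell and 2 rose in CD4 KO. Over all genes, 16.7% were called higher and 14.1% lower in DP KO, and 20.9% higher and 18.6% lower in CD4 KO. Ifngr1, the ligand-binding chain of the interferon gamma receptor, had 1793, 1874 and 1814 CPM in DP KO and 425, 447 and 389 CPM in DP WT. It had 779, 862 and 1055 CPM in CD4 KO and 108, 99.6 and 112 CPM in CD4 WT. All KO libraries lay far above WT, with rises of 2.13 ± 0.074 (adjusted p = 1.43e-07) and 3.08 ± 0.12 (adjusted p = 5.75e-07). Ifngr2, its signalling partner chain, fell by 0.36 ± 0.11 in DP KO (adjusted p = 0.0282) and by 1.39 ± 0.075 in CD4 KO (adjusted p = 2.3e-06).

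Irf9 encodes a transcription factor of interferon signalling, and its signs were like those of Nlrc5. Irf9 rose in DP KO by 0.73 ± 0.23 (adjusted p = 0.0405) and fell in CD4 KO by 0.85 ± 0.13 (adjusted p = 0.000826). Unlike for Nlrc5, the DP groups overlapped, at 94.6, 112.5 and 54.6 CPM in KO and 51.25, 44.1 and 63.8 CPM in WT. In CD4 they were apart, at 88.7 to 137 CPM in KO and 203 to 211 CPM in WT. Fits without 1 library were not examined for Irf9. Socs1, a feedback inhibitor of this signalling, fell in DP KO to 45.1, 54.0 and 67.3 CPM, against 161, 127 and 132 CPM in DP WT (-1.33 ± 0.14, adjusted p = 0.000131).

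Of 9 genes for factors of class I promoters, the subunits of RFX, NF-Y, CREB and NF-kappaB, 1 fell in DP KO (Creb1, -0.22) and 2 fell and 1 rose in CD4 KO (Nfkb1, -0.76, Rela, -0.25, and Nfyb, 0.25). Of 13 genes of other loading and quality control steps, 1 rose and 3 fell in DP KO, and 2 rose and 5 fell in CD4 KO. Beside the counts of these lists, 30.8% of all genes were called in either direction in DP KO and 39.5% in CD4 KO. Susd6, known for the turnover of class I molecules in human cells, fell in CD4 KO to 105 ± 6.01 CPM, against 185 ± 19.8 CPM in CD4 WT (SD, n = 3 each, log2 fold change -0.81, adjusted p = 8.65e-05). Of 5 class I like genes, Mr1, which presents vitamin B metabolites to MAIT cells, rose in CD4 KO to 56.7 ± 7.24 CPM, against 19.0 ± 1.43 CPM in CD4 WT (SD, n = 3 each, 1.58 ± 0.11, adjusted p = 6.35e-06). Cd1d1, which presents lipids, fell by 0.50 in DP KO and by 0.27 in CD4 KO (adjusted p = 0.00171 and 0.017).

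Cells other than thymocytes can carry class I RNA, so their markers are given beside these results. The summed CPM of 5 class II presenting cell genes lay at 21.95 to 37.0 in DP KO and 17.95 to 52.9 in DP WT, and at 70.0 to 134 in CD4 KO and 57.6 to 159 in CD4 WT, and overlapped between genotypes. The sum of 7 myeloid and dendritic cell genes lay at 9.49 to 13.4 CPM in DP KO and 13.6 to 18.2 CPM in DP WT, and at 16.9 to 48.4 CPM in CD4 KO and 19.9 to 47.8 CPM in CD4 WT. The sum of 5 B cell genes lay at 20.9 to 26.2 CPM in DP KO and 15.9 to 20.8 CPM in DP WT, and at 19.9 to 29.2 CPM in CD4 KO and 5.93 to 16.5 CPM in CD4 WT, mostly Cd79b. Of the 6 thymic epithelial genes the sum was 0.993 to 1.93 CPM in DP KO and 4.50 to 5.36 CPM in DP WT, and 4.97 to 6.07 CPM in CD4 KO and 5.15 to 5.43 CPM in CD4 WT, with Foxn1 at 0 to 0.294 CPM throughout. The 4 innate-like T cell genes summed to 8.04 to 9.78 CPM in CD4 KO and 39.2 to 56.0 CPM in CD4 WT, with Trdc at 0 in all 12 libraries. Class II and myeloid sums were lowest in replicate 3 of each group, and the part of these cells in the class I results was not tested.

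With DP WT replicate 3 as the lone DP WT library, assumed to vary like the other groups, 6 of the 17 rises in DP KO were still called (B2m, H2-Q6, Erap1, Psmb10, Psme1 and Nlrc5). All 17 log2 fold changes remained positive, from 0.23 to 2.31.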

How the data were processed

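The authors deposited raw read counts per gene in 2 tables, 1 for DP and 1 for CD4, from paired reads of poly(A) RNA, per the labels' protocols. The submitters' processing notes list the build mm10 and the tools Subread 1.0.1, R 4.1.5 and DESeq2 without saying what each did. Which aligner was used, whether strand was used and how reads matching several places were counted is not given in the sources used here. No column of per-library values was left out, and groups came from the sample titles. The deposited gene lengths count copies on alternative sequences, so levels per kilobase used exons of the primary chromosomes.

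The deposited counts entered edgeR 4.0.16 (R 4.3.3), with the quasi-likelihood test after TMM normalization and the default low-count filter. Each comparison used its own 6 libraries, and the interaction used all 12. A gene was called at an adjusted p under 0.05 (Benjamini-Hochberg over all genes tested). The SE is the size of the log2 fold change over the root of F. The script was first tested on simulated data. The limit of 3 counts covers counting error only. Figures were drawn with matplotlib 3.10.9. Replicates of a group differed well beyond sampling noise (chi-square per degree of freedom 15.2 to 50.8), so no library was a copy of another.

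The labels give each replicate number as a batch shared by all groups. They do not tell whether libraries of the same number share an animal. Xist stood at 0.845 and 0.273 CPM in DP WT replicates 1 and 2, and at 335 and 284 CPM in CD4 WT replicates 1 and 2. Deviations of same-numbered KO and WT libraries from their group means had correlations of 0.0195, -0.0018 and 0.176 in DP and 0.116, 0.159 and 0.343 in CD4. For same-numbered CD4 and DP libraries they were 0.221, 0.147 and 0.265 in WT and 0.23, 0.365 and 0.486 in KO. The main tests left the replicate number out, and the replicate block was fitted as an alternative.

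The members and lists were chosen with earlier results of these data known. Values per library were to be given for H2-K1, H2-D1, B2m, Nlrc5, Tap1, Tapbp, Psmb8, Psmb9, Irf1 and the 3 members of each role group with the smallest adjusted p. H2-Q6, H2-T3, H2-T10 and Tapbpl were added after their values were seen, as were the ratios. Results were recomputed with the Wald test of DESeq2 1.42.0, DESeq2 size factors, no low-count filter, 1 model over all 12 libraries, the replicate block, each library left out in turn, DP WT replicate 3 as the lone DP WT library, and summed H2 rows.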

Additional observations from a re-analysis of the deposited data

Results flagged for a closer look

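The KO effect differed between the sorts for 26 of the 32 genes, by a direct test of the difference over all 12 libraries (edgeR quasi-likelihood test, adjusted p under 0.05, against 27.8% of all genes). Values are log2 differences, the effect of KO in CD4 minus the effect in DP. Among the heavy chains the difference was -1.63 for H2-K1, -0.71 for H2-D1, -0.70 for H2-Q4, -1.56 for H2-Q6, -2.22 for H2-Q7, -1.42 for H2-Q10, -0.82 for H2-T22, -0.66 for H2-T23, -1.15 for H2-T24 and -0.97 for H2-M3. It was -1.72 for the light chain gene B2m. Among loading genes it was -0.72 for Tap1, -1.31 for Tapbp, -0.56 for Calr, -0.43 for Pdia3 and -1.03 for Erap1. In the immunoproteasome and its activator it was -0.72 for Psmb9, -0.83 for Psmb10, -0.61 for Psme1 and -1.24 for Psme2, and among regulators -2.42 for Nlrc5 and -0.94 for Irf1. Positive differences were found for H2-Q2 (1.94), H2-T3 (3.49), H2-T10 (0.71) and Tapbpl (0.42).

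The call for H2-T24 was lost in 9 and that for Tapbpl in 9 of the 12 fits without 1 library, and that for H2-T24 also by the DESeq2 Wald test (-1.14, adjusted p = 0.0708). With DP WT replicate 3 as the lone DP WT library, the calls for H2-D1, H2-Q6, H2-T24, Tapbpl and Irf1 were lost, with their signs kept.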

How the results depend on the processing

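With DP WT replicate 3 as the lone DP WT library, in DP KO 6 genes were higher and 2 lower, 3 were lower in CD4 than in DP in WT, and the cause was not tested beyond the loss of 2 of 3 control libraries. The number lower in DP KO was 2 by the DESeq2 Wald test and in 1 model over all 12 libraries, and 3 without the low-count filter. Without that filter 3 genes were lower in CD4 than in DP in WT. Without 1 library, in DP KO 13 to 19 genes were higher and 1 to 2 lower, and 3 to 4 were higher and 11 to 16 lower in CD4 KO (11 without CD4 WT replicate 2). The interaction gave 3 to 4 higher and 21 to 23 lower. In the comparisons of CD4 with DP, 16 to 20 were higher and 1 lower in KO, and 23 were higher and 3 to 4 lower in WT. With the replicate block, in DP KO 18 genes were higher and 1 lower, 6 higher and 17 lower in CD4 KO, and 5 higher and 23 lower in the interaction, where H2-M2 (adjusted p = 0.0352) and Irf2 (-0.23, adjusted p = 0.05) were gained. H2-M2 was also gained there without the low-count filter (adjusted p = 0.0223), and Irf2 without DP KO replicate 3 or CD4 KO replicate 2. No size is given for the H2-M2 gains, since the DP KO libraries held 1 to 4 counts of it. The blocked numbers higher and lower in CD4 were 26 and 1 in KO and 24 and 5 in WT, where H2-Q1 was gained (adjusted p = 0.0327, and 0.0331 without the low-count filter). The block changed no call other than these and those given in the report.

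No called value changed its sign. Uncalled values did. In DP KO against WT without 1 library, H2-D1 ran from -0.29 to 0.047, H2-Q4 from -0.14 to 0.018, H2-T22 from -0.013 to 0.24, H2-T23 from -0.076 to 0.16, H2-T24 from -0.31 to 0.23, Tapbpl from -0.023 to 0.20 and Irf2 from -0.018 to 0.074. Irf2 was also -0.0117 with DESeq2 size factors, -0.0028 in 1 model and, with the lone DP WT library, -0.0083, where H2-T22 was -0.035. In CD4 KO against WT, H2-Q1 ran from -0.098 to 0.23, H2-M2 from -0.88 to 0.40 and Psmb10 from -0.0186 to 0.045, with -0.0026 for Psmb10 under DESeq2 size factors and -0.00038 by the Wald test. In the interaction, Tap2 ran from -0.028 to 0.056 and was -0.00596 without the low-count filter, and with the lone DP WT library H2-Q1 was 0.0089 and H2-M2 was -0.15, a fitted value that depends on the prior count. Between CD4 and DP in KO, H2-Q1 ran from -0.17 to 0.042, H2-T3 from -0.028 to 0.23 and Canx from -0.017 to 0.032, with Canx at -0.015 without the filter and -0.00023 in 1 model. In WT, H2-Q1 was -0.067 with the lone DP WT library.

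Calls between CD4 and DP that were lost without some single library were those of H2-Q10, H2-T24, Pdia3, Erap1 and Psme1 in KO and of Tap2 and H2-T10 in WT. Without the low-count filter those of H2-Q10, Pdia3 and Erap1 in KO and of Tap2 and Tapbpl in WT were lost, and by the DESeq2 Wald test those of Erap1 in KO and Tap2 in WT. Depth limits H2-M2, whose counts ran from 1 per library in DP.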
